A study of Homo sapiens with 8 samples.

Results

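Transcripts that serve as hosts for small RNAs were followed in senescent fibroblasts by fastGRO-seq, a run-on assay that reads transcripts still being made. Members were all rows of the count table with an SNHG number or a name from MIR to HG, other than rows annotated as protein-coding, which left out 1 row. This gave 84 of 27945 rows, of which 24 were small nucleolar RNA host genes (SNHG) and 60 were microRNA host transcripts. IMR90 cells are human lung fibroblasts, and ER:RAS is an oncogenic RAS fused to the estrogen receptor that 4-OHT switches on to drive the cells into senescence. The 4 groups of 2 libraries were control cells, labeled without an shRNA, and cells given 100 nM 4-OHT and collected on day 6 that expressed shControl, shMETTL3 or shMETTL14. Each knockdown used 1 shRNA. The control cells are labeled WT, and whether they carried the ER:RAS construct is not given in the sources used here. RAS activity, 4-OHT and shRNA infection therefore cannot be told apart in shControl against control cells. METTL3 and METTL14 form the core of the complex that places N6-methyladenosine on RNA.

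An SNHG transcript is spliced, and its introns are trimmed into small nucleolar RNAs (snoRNAs) that guide chemical marks on ribosomal RNA. Box C/D snoRNAs guide ribose methylation, box H/ACA snoRNAs guide pseudouridylation, and the related scaRNAs act on spliceosomal RNAs in Cajal bodies. The spliced SNHG exons often decay rapidly in the cytoplasm. In microRNA host transcripts, DROSHA and DGCR8 crop a hairpin out of the primary RNA, DICER1 cuts it again, and an Argonaute protein carries the mature strand to target mRNAs through its seed. Counts covered whole gene bodies, introns included, and do not tell the precursor from the mature small RNA.

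The mature microRNAs of the hosts that the results turn on are shown from RefSeq (sequences of GRCh38.p14), with the seed, bases 2 to 8, in capitals.
hsa-miR-31-5p: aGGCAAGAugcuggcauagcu
hsa-miR-34a-5p: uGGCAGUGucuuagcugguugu
hsa-miR-181a-5p: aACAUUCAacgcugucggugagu
hsa-miR-181b-5p: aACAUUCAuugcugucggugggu
hsa-let-7a-5p: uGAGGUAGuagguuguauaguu
hsa-let-7b-5p: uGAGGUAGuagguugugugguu
hsa-miR-100-5p: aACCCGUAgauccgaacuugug
hsa-miR-125b-5p: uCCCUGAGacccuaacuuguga
hsa-miR-137-3p: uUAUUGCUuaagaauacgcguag
hsa-miR-146a-5p: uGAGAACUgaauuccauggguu
hsa-miR-155-5p: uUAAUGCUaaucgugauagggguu
The pair miR-181a and miR-181b shared the seed ACAUUCA and lay in both MIR181A1HG and MIR181A2HG. The let-7 pair shared GAGGUAG, with let-7a in MIR100HG and in MIRLET7BHG and let-7b in MIRLET7BHG. In the GENCODE annotation of hg19, MIR34A, MIR137, MIR146A and MIR155 were exonic in their hosts, whereas MIR31, MIR100, MIR125B1, MIRLET7A2 and the MIR181 hairpins were intronic.

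For the SNHG class, small RNAs among those that held the most counts are shown, read from the hg19 genome at the rows of SNORA73B (chr1:28835070-28835274, plus strand) in SNHG3, SNORA24 (chr4:119200345-119200475, plus strand) in SNHG8, SCARNA13 (chr14:95999692-95999966, minus strand) in SNHG10, SCARNA16 (chr17:75085389-75085575, plus strand) in SNHG20 and SNORD22 (chr11:62620382-62620507, minus strand) in SNHG1, with SNORD50A (chr6:86387012-86387086, minus strand) in SNHG5 as a compact box C/D example. Capitals mark the ACA box near the end of H/ACA and scaRNAs, and TGATGA (C box) and CTGA (D box) in the C/D snoRNAs where these letters were found.
SNORA73B: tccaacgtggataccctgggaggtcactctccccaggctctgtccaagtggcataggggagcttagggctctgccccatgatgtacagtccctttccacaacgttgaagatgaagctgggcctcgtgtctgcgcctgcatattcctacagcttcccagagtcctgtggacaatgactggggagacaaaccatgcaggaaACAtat
SNORA24: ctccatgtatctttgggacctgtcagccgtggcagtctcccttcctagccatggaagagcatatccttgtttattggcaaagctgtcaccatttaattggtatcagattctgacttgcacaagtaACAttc
SCARNA13: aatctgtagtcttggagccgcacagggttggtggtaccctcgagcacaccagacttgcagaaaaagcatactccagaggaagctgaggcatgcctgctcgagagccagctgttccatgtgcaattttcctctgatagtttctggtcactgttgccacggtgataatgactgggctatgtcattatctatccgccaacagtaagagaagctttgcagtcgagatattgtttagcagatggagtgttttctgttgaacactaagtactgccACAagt
SCARNA16: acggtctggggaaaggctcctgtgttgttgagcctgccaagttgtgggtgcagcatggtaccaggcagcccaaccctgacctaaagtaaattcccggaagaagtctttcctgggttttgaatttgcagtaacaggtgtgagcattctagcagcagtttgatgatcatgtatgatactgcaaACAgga
SNORD22: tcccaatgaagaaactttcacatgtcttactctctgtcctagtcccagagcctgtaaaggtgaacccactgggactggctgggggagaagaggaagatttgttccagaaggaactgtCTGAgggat
SNORD50A: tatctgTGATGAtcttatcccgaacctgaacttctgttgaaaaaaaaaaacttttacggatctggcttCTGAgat
In all 4 H/ACA and scaRNA sequences, 3 bases followed the ACA box. SNORA73B was intronic in every GENCODE transcript of its host that spans it, and the other 5 overlapped an exon of at least 1 transcript.

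Library totals ranged from 14897360 to 20306299 counts, of which 86.2% to 92.5% lay in 21 ribosomal RNA rows, leaving 1513930 to 2048475 counts on other genes. The members held 0.356% and 0.359% of these in control, 0.559% and 0.595% in shControl, 0.799% and 0.800% in shMETTL3 and 0.514% and 0.607% in shMETTL14 libraries. These shares lean on few rows. Member counts were 6628 and 6828 in control and 9003 and 8813 in shControl libraries. Of these, MIR31HG held 212 and 197 in control and 3278 and 2981 in shControl libraries. SNHG3 held 994 and 1026 in control and 1547 and 1608 in shControl libraries. Genes that overlap appeared to share reads whatever their strand. Of 315 pairs in which a gene encloses a gene of the other strand, 313 had counts of the enclosing gene at or above those of the enclosed gene throughout all 8 libraries. The enclosing gene is always the longer one, so these counts alone do not settle whether strands were kept apart. All 10 fibroblast markers had at least 10 counts in every library, with summed counts of 36466 to 38534 in control, 16867 to 19411 in shControl, 16048 to 17804 in shMETTL3 and 10266 to 11197 in shMETTL14 libraries. Epithelial markers summed to at most 9 counts (KRT5 at 0), leukocyte markers to at most 10 (CD3E at 0) and endothelial markers to 16 to 133, highest in control cells. The part of these shifts in the results was not tested, and fewer cells of a type and less RNA per cell cannot be told apart in bulk libraries.

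Knockdown was read first. METTL3 had 80 and 78 counts in control, 77 and 47 in shControl, 16 and 19 in shMETTL3 and 73 and 56 in shMETTL14 libraries, a log2 fold change of -2.04 ± 0.31 (SE, adjusted p = 1.79e-05) for shMETTL3 against shControl. METTL14 had 60 and 55, 24 and 28, 41 and 48, and 18 and 14 counts in the same order. Its log2 fold change for shMETTL14 against shControl, -0.86 ± 0.34 (SE, adjusted p = 0.0763), did not pass the threshold of 0.05. In the same edgeR fit METTL14 was lower in shControl than in control cells, at -0.76 ± 0.28 (SE, adjusted p = 0.0472). With shMETTL14 it was lower than with shMETTL3, at -1.41 ± 0.32 (SE, adjusted p = 0.00101). Run-on counts do not measure mature mRNA or protein, so the depth of either knockdown was not tested here.

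Of the 84 members, 12 had no count in any library, 24 never exceeded 3 counts in a library, and 41 passed the filter on low counts and were tested, 18 SNHG and 23 microRNA hosts. Of these 41, 32 reached the filter's cutoff in all 4 groups, and 1 in 1 group only. The other 43 reached at most 16 counts in a library. SNHG rows were compact, with a median span of 4183 bases (340 to 595854), against 22333 bases (1095 to 571233) for microRNA hosts. Per length, the tested SNHG rows had a median of 0.706 RPKM (counts scaled to row length and library size, averaged over the 8 libraries) and the tested microRNA hosts 0.0707 RPKM. SNHG3 led with 23.4 RPKM, followed by SNHG8 (4.15), SNHG5 (2.91), SNHG10 (2.18), SNHG19 (1.86), MIR31HG (1.37), SNHG4 (1.16), SNHG1 and SNHG16 (both 1.08) and SNHG7 (0.934). SNHG3 had 9.92 to 36.6 RPKM over the libraries and lay above SNHG8 (1.82 to 8.15) in all of them, whereas the ranges of all other neighbours in this order overlapped.

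**Figure D1:**
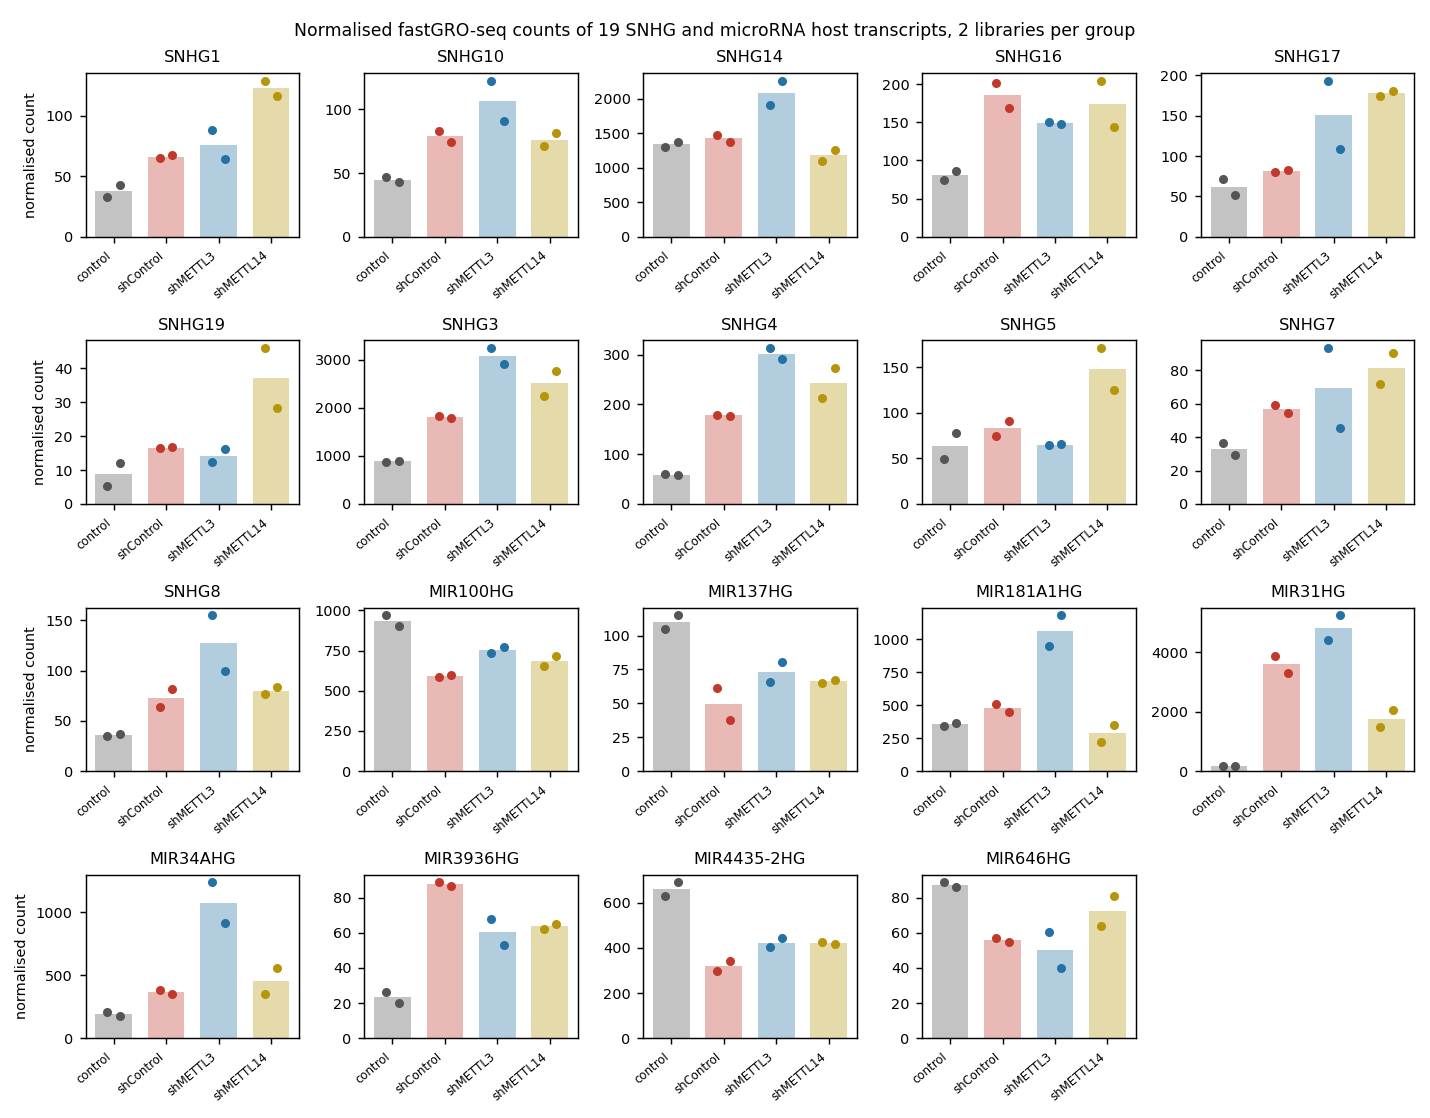
Normalised counts (vertical axes, from 0) of the 19 named members by group. Points are the 2 libraries of a group and bars their mean. MIR31HG lay at 172 and 188 in control and at 3318 and 3875 in shControl libraries, whereas MIR100HG and MIR4435-2HG were lower in both shControl libraries than in both control libraries.

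The first comparison asked how host transcripts differed between senescent shControl and control cells. Values are TMM-normalised counts, scaled to a common library size, and differences are edgeR log2 fold changes. Of the 41 tested members, 12 were higher and 7 lower at an adjusted p below 0.05, against 13.3% of all 12844 tested genes higher and 13.3% lower. Among 18 SNHG rows 8 were higher and 0 lower, with a median log2 fold change of 0.80. At an unadjusted p below 0.05 edgeR gave 0 lower SNHG rows, and DESeq2 called 0. Among 23 microRNA hosts 4 were higher and 7 lower, with a median of -0.41. Over all genes tested the median was -0.03. Scaling by library size in place of TMM moved that median to -0.53 and the class medians to 0.30 and -0.90, with 7 members higher and 15 lower. Removal of the counts over enclosed snoRNA and scaRNA rows, described below, moved the class medians to 0.49 and -0.37 and the median of all members from 0.38 to 0.01. The microRNA host median was -0.15 without shControl replicate 2, and -0.08 by edgeR and -0.10 by DESeq2 without the filter on low counts. Below, a call that ended when 1 library was left out or in another fit at the same threshold is followed by the adjusted p without that library (shControl 2 being shControl replicate 2) or in that fit.

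**Figure D2:**
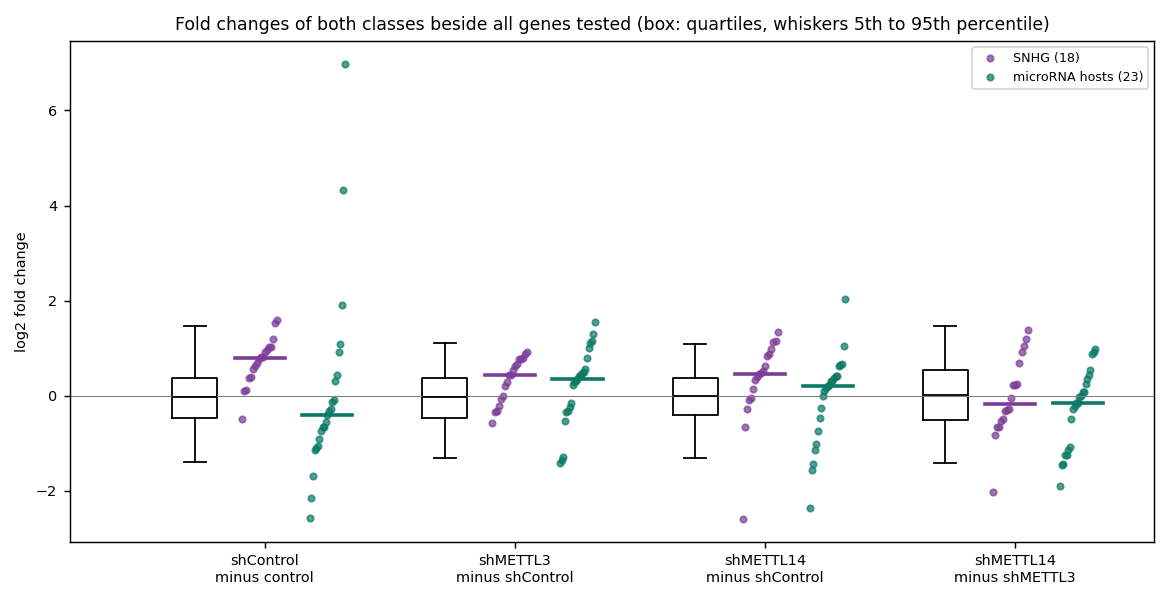
Log2 fold changes (vertical axis) of all genes tested (boxes), of the 18 SNHG rows (purple points) and of the 23 microRNA hosts (green points) in 4 comparisons. Boxes span the quartiles and whiskers the 5th to 95th percentiles, with coloured bars at the class medians. The SNHG median was 0.80 in shControl against control cells, where the microRNA host median was -0.41.

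SNHG3, the highest member, had normalised counts of 880.2 and 893 in control, 1829 and 1789.6 in shControl, 3244 and 2921 in shMETTL3 and 2251 and 2767 in shMETTL14 libraries. Every shControl library was above both control libraries, with a log2 fold change of 1.03 ± 0.14 (SE, adjusted p = 1.94e-06). SNHG3 (chr1:28832455-28837404 on hg19, plus strand) lies wholly inside RCC1, whose 16603 counts exceed the 16294 of SNHG3 by few, so both rows hold largely the same reads. SNHG4, host of SNORA74A, had 59.3 and 58.3 in control, 179.7 and 176 in shControl, 313 and 291 in shMETTL3 and 213 and 273 in shMETTL14 libraries (log2 fold change 1.59 ± 0.18 SE, adjusted p = 8.89e-08). It lies wholly inside MATR3 and shares its reads. SNHG16, host of the SNORD1 snoRNAs, had 74.4 and 86.2 in control, 201 and 169 in shControl, 151 and 147 in shMETTL3 and 204 and 144 in shMETTL14 libraries (log2 fold change 1.20 ± 0.19 SE, adjusted p = 1.33e-05).

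SNHG8, host of SNORA24, had 34.5 and 36.6 in control, 63.8 and 81.2 in shControl, 155 and 99.7 in shMETTL3 and 77 and 83.2 in shMETTL14 libraries. Its control and shControl libraries did not overlap (log2 fold change 1.03 ± 0.25 SE, adjusted p = 0.00307). SNHG8 lost this call without shControl 2 (adjusted p = 0.072), and with library size alone (adjusted p = 0.0972) or the enclosed counts removed (adjusted p = 0.108). SNHG1, which carries 8 SNORD rows, had 32.8 and 42.7 in control, 65 and 67.9 in shControl, 88.2 and 64.6 in shMETTL3 and 129 and 117 in shMETTL14 libraries (log2 fold change 0.81 ± 0.24 SE, adjusted p = 0.0124). SNHG1 lost this call without control 1, shControl 1 or shControl 2 (adjusted p from 0.0629 to 0.147), and with DESeq2 (adjusted p = 0.0876, or 0.0623 on filtered genes), library size alone (adjusted p = 0.336) or the enclosed counts removed (adjusted p = 0.133). SNHG10, host of SCARNA13, had 46.9 and 42.7 in control, 82.8 and 74.6 in shControl, 122 and 91.1 in shMETTL3 and 71 and 81.1 in shMETTL14 libraries (log2 fold change 0.81 ± 0.23 SE, adjusted p = 0.00818). SNHG10 lost this call without control 2 or shControl 1 (adjusted p from 0.0745 to 0.0936), and with DESeq2 (adjusted p = 0.072, or 0.0503 on filtered genes) or library size alone (adjusted p = 0.319). The remaining 2 SNHG rows past the threshold were SNHG26, host of SNORD93, at 1.53 ± 0.31 (SE, adjusted p = 0.000439), and SNHG22, host of SCARNA17, at 0.97 ± 0.32 (SE, adjusted p = 0.0263). SNHG22 lost this call without control 1, control 2, shControl 1 or shControl 2 (adjusted p from 0.0637 to 0.174), and with DESeq2 (adjusted p = 0.167, or 0.116 on filtered genes), library size alone (adjusted p = 0.242) or the enclosed counts removed (adjusted p = 0.955). Both were named after their values were seen. SNHG5, SNHG7, SNHG14, SNHG17 and SNHG19 did not pass the test, with log2 fold changes from 0.09 ± 0.14 (SNHG14) to 0.91 ± 0.49 (SNHG19).

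Among microRNA hosts, MIR31HG (chr9:21454267-21559797, minus strand) gave the widest separation of named members. Its normalised counts were 188 and 172 in control, 3875 and 3318 in shControl, 4426 and 5253 in shMETTL3 and 1501 and 2045 in shMETTL14 libraries. The log2 fold change was 4.32 ± 0.18 (SE, adjusted p = 1.17e-16). MIR31HG holds miR-31 in an intron, and the row also covers the interferon gene IFNE. MIR34AHG, the host of miR-34a, had 212 and 174 in control, 384 and 347 in shControl, 1234 and 912 in shMETTL3 and 348 and 558 in shMETTL14 libraries (log2 fold change 0.92 ± 0.19 SE, adjusted p = 0.000496). MIR34AHG lost this call with library size alone (adjusted p = 0.0552). MIR3936HG had 26.6 and 20 in control, 88.7 and 86.8 in shControl, 67.7 and 53.2 in shMETTL3 and 62 and 65.3 in shMETTL14 libraries (log2 fold change 1.91 ± 0.25 SE, adjusted p = 1.23e-06), and 56.2% of its span lies in SLC22A4 on the other strand. MIR3142HG, host of miR-146a, an inhibitor of inflammatory signaling that NF-kB induces, was named after its values were seen. It had 0 and 1 counts in control and 76 and 48 in shControl libraries, a ratio of 162 (95% exact binomial interval 28.5 to 6446, counting error only). It reached the filter's cutoff in every group but control, so it stands among the higher hosts without its test.

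Among the 7 hosts lower in shControl cells, MIR100HG, the shared host of miR-100, let-7a-2 and miR-125b-1, had 969.7 and 903 in control, 588 and 599 in shControl, 733 and 775 in shMETTL3 and 653 and 714 in shMETTL14 libraries (log2 fold change -0.66 ± 0.13 SE, adjusted p = 0.00037). MIR4435-2HG, a long noncoding RNA known for the survival of myeloid cells, encloses no microRNA row. It had 631 and 689.7 in control, 297 and 341 in shControl, 404 and 443 in shMETTL3 and 427 and 418 in shMETTL14 libraries (log2 fold change -1.05 ± 0.14 SE, adjusted p = 9.6e-07). MIR137HG had 104 and 115 in control, 61.5 and 37.8 in shControl, 65.7 and 80.7 in shMETTL3 and 65 and 67.4 in shMETTL14 libraries (log2 fold change -1.15 ± 0.22 SE, adjusted p = 0.000276). In each of these, both control libraries lay above both shControl libraries. MIR646HG was lower at -0.65 ± 0.23 (SE, adjusted p = 0.0336). MIR646HG lost this call without control 1, control 2, shControl 1, shControl 2 or shMETTL14 1 (adjusted p from 0.0537 to 0.18), and with DESeq2 (adjusted p = 0.244, or 0.175 on filtered genes). The other 3, named after their values were seen, were MIR924HG at -2.57 ± 0.26 (SE, adjusted p = 1.34e-08), MIRLET7BHG at -2.14 ± 0.43 (SE, adjusted p = 0.000422) and MIR193BHG at -1.69 ± 0.48 (SE, adjusted p = 0.0093). MIRLET7BHG lost this call with DESeq2 (adjusted p = 0.278, or 0.245 on filtered genes). MIR193BHG lost this call without control 2 or shControl 1 (adjusted p from 0.125 to 0.21), and with DESeq2 (adjusted p = 0.112, or 0.0651 on filtered genes). MIRLET7BHG, which shares the let-7 seed with MIR100HG, had 90 and 66 counts in control and 11 and 16 in shControl libraries. MIR193BHG had 31 and 45 counts in control and only 4 and 14 in shControl libraries. MIR924HG had 151 and 175 in control and 19 and 23 in shControl libraries.

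**Figure D3:**
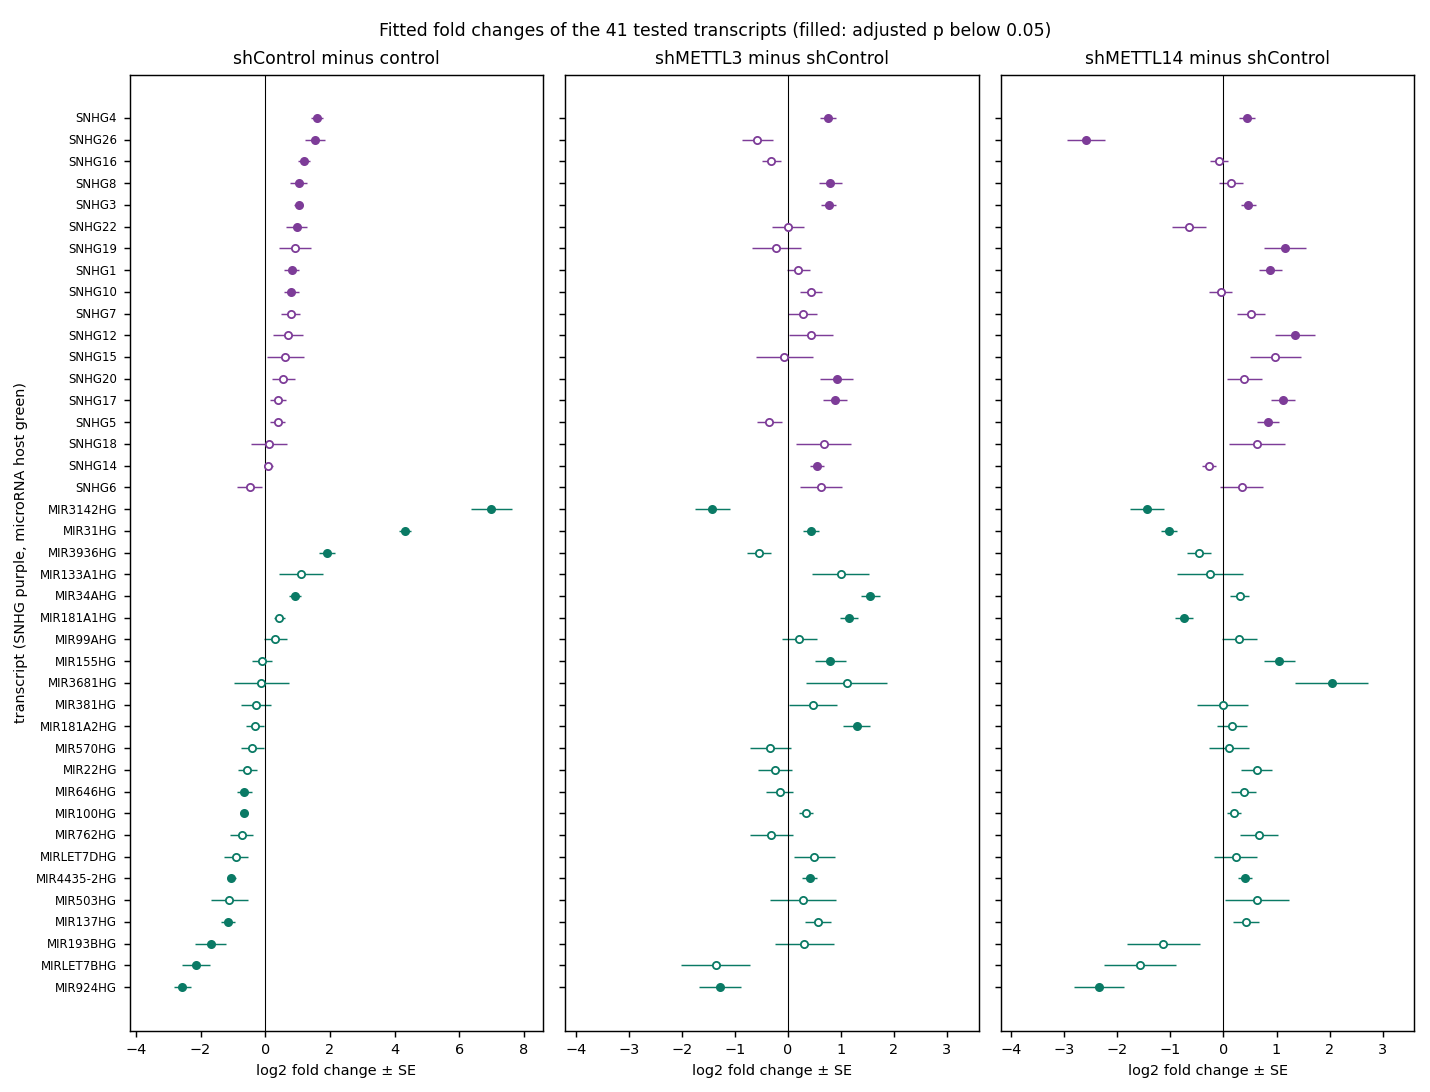
Log2 fold change ± SE (horizontal axes) of each of the 41 tested members in 3 comparisons, SNHG in purple and microRNA hosts in green. Filled points have an adjusted p below 0.05. In the left panel the filled SNHG points all lie above 0, whereas the filled microRNA host points run from -2.57 (MIR924HG) to 6.99 (MIR3142HG, a fitted value against 1 control count).

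The second question was how senescent cells with shMETTL3 differed from those with shControl. Here 12 of 41 members were higher and 2 lower, against 12.2% and 11.2% of all genes tested. The counts were 6 higher and 0 lower for SNHG (median 0.43), and 6 higher and 2 lower for microRNA hosts (median 0.35), beside a median of -0.03 over all genes. At an unadjusted p below 0.05 edgeR gave 0 lower SNHG rows, and DESeq2 called 0. Scaling by library size moved the median of all genes to 0.58 and the class medians to 1.03 and 0.96, with 23 members higher and 1 lower. Without the enclosed counts the class medians were 0.10 and 0.41, and without shMETTL3 replicate 1 they were 0.20 and 0.53. The 12 higher members became 6 without shControl replicate 2 and 7 without shControl replicate 1, and the 2 lower became 0 without shControl replicate 1 and 4 without shMETTL3 replicate 1.

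MIR34AHG had the largest rise of these 12, with both shMETTL3 libraries above all other libraries (log2 fold change 1.55 ± 0.18 SE, adjusted p = 3.29e-07). MIR181A1HG had 342 and 367 in control, 512 and 449 in shControl, 948 and 1182 in shMETTL3 and 221 and 352 in shMETTL14 libraries. Its shMETTL3 libraries were also the highest (log2 fold change 1.15 ± 0.16 SE, adjusted p = 7.96e-06). Its paralogous host MIR181A2HG, named after its values were seen, had 41.6 and 38.3 in control, 30.7 and 33.4 in shControl, 77 and 80.7 in shMETTL3 and 34 and 37.9 in shMETTL14 libraries (log2 fold change 1.29 ± 0.25 SE, adjusted p = 0.000412), and lies wholly in NR6A1 on the other strand. MIR31HG was higher by 0.43 ± 0.15 (SE, adjusted p = 0.0395). MIR31HG lost this call without control 1, control 2, shControl 1, shControl 2 or shMETTL3 2 (adjusted p from 0.0823 to 0.376), and with DESeq2 on filtered genes (adjusted p = 0.0562), upper quartile scaling (adjusted p = 0.0502), at least 10 counts required in every library (adjusted p = 0.052) or only the 2 groups compared (adjusted p = 0.055). MIR4435-2HG was higher by 0.41 ± 0.14 (SE, adjusted p = 0.0331). MIR4435-2HG lost this call without control 1, control 2, shControl 1, shControl 2 or shMETTL3 2 (adjusted p from 0.0596 to 0.302), and with DESeq2 (adjusted p = 0.063, or 0.0696 on filtered genes), no filter (adjusted p = 0.0565) or only the 2 groups compared (adjusted p = 0.0604). MIR155HG, host of the immune microRNA miR-155 and named after its values were seen, was higher by 0.80 ± 0.29 (SE, adjusted p = 0.0475). MIR155HG lost this call without control 1, control 2, shControl 1, shControl 2, shMETTL3 2, shMETTL14 1 or shMETTL14 2 (adjusted p from 0.0571 to 0.624), and with DESeq2 (adjusted p = 0.191, or 0.164 on filtered genes), upper quartile scaling (adjusted p = 0.0541), at least 10 counts required in every library (adjusted p = 0.0536) or only the 2 groups compared (adjusted p = 0.099). The 2 hosts that fell were MIR3142HG at -1.42 ± 0.32 (SE, adjusted p = 0.00191), and MIR924HG at -1.28 ± 0.40 (SE, adjusted p = 0.0195). Raw counts of MIR924HG were 19 and 23 in shControl and 7 and 13 in shMETTL3 libraries. MIR3142HG lost this call without shControl 1 (adjusted p = 0.108). MIR924HG lost this call without shControl 1, shControl 2 or shMETTL3 1 (adjusted p from 0.0548 to 0.13), and with DESeq2 (adjusted p = 0.0838, or 0.0702 on filtered genes), library size alone (adjusted p = 0.2) or only the 2 groups compared (adjusted p = 0.0585).

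Of the SNHG rows, SNHG3 rose by 0.77 ± 0.14 (SE, adjusted p = 0.000161), and SNHG4 by 0.76 ± 0.15 (SE, adjusted p = 0.000487). SNHG17, host of 4 near-identical SNORA71 copies, had 71.7 and 52.2 in control, 80.4 and 82.4 in shControl, 193 and 109 in shMETTL3 and 174 and 181 in shMETTL14 libraries (log2 fold change 0.88 ± 0.22 SE, adjusted p = 0.00465). SNHG17 lost this call without shControl 1, shControl 2 or shMETTL3 1 (adjusted p from 0.0546 to 0.151), and with the enclosed counts removed (adjusted p = 0.399). Its higher shMETTL3 library was near the shMETTL14 libraries and the other was not. SNHG8 was higher by 0.80 ± 0.22 (SE, adjusted p = 0.00806). SNHG8 lost this call without shControl 1 or shMETTL3 1 (adjusted p from 0.138 to 0.139), and with DESeq2 without the filter (adjusted p = 0.062) or the enclosed counts removed (adjusted p = 0.244). SNHG14, the long host of the SNORD115 and SNORD116 clusters in the imprinted Prader-Willi region, had 1304 and 1372 in control, 1477 and 1374 in shControl, 1907 and 2255 in shMETTL3 and 1098 and 1260.5 in shMETTL14 libraries (log2 fold change 0.55 ± 0.14 SE, adjusted p = 0.00455). SNHG14 lost this call without shControl 2 or shMETTL3 2 (adjusted p from 0.0545 to 0.111). Its row covers SNRPN on the same strand, whose reads it shares, and UBE3A on the other strand. SNHG20, named after its values were seen, was higher by 0.92 ± 0.32 (SE, adjusted p = 0.0362). It lies wholly inside SEC14L1 on the same strand, which had 1432 counts over all libraries against 284, and shares its reads. SNHG20 lost this call without shControl 1, shControl 2 or shMETTL3 2 (adjusted p from 0.133 to 0.552), and with DESeq2 (adjusted p = 0.175, or 0.145 on filtered genes) or only the 2 groups compared (adjusted p = 0.069). Removal of the enclosed counts left at most 6 counts in a shControl or shMETTL3 library and also ended the call.

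The third comparison set shMETTL14 against the same shControl libraries. Here 10 of 41 members were higher and 5 lower, against 9.15% and 12% of all genes tested. SNHG rows gave 7 higher and 1 lower (median 0.46) and microRNA hosts 3 higher and 4 lower (median 0.20), beside a median of -6.4e-05 over all genes. Scaling by library size moved the median of all genes to 0.35 and the class medians to 0.81 and 0.55, with 18 members higher and 4 lower. Without the enclosed counts they were 0.73 and 0.20. The microRNA host median was 0.13 without either control library or without the filter, and turned to -0.01 without shControl replicate 2 and to -0.07 without shMETTL14 replicate 2. The 10 higher members became 3 without either shControl library, 4 without shMETTL14 replicate 1 and 6 without shMETTL14 replicate 2, and the 5 lower became 3 without shControl replicate 1.

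SNHG17 rose by 1.12 ± 0.22 (SE, adjusted p = 0.000451). SNHG1 rose by 0.89 ± 0.21 (SE, adjusted p = 0.00293). SNHG1 lost this call without shMETTL14 1 (adjusted p = 0.0601). SNHG5, host of SNORD50A and SNORD50B, had 49.6 and 77.5 in control, 74.5 and 91.3 in shControl, 64.6 and 65.5 in shMETTL3 and 171 and 125 in shMETTL14 libraries, with both shMETTL14 libraries above all others (log2 fold change 0.84 ± 0.21 SE, adjusted p = 0.00536). SNHG5 lost this call without shControl 1 or shMETTL14 1 (adjusted p from 0.102 to 0.191), and with DESeq2 without the filter (adjusted p = 0.0632). SNHG19, host of SNORD60, had 5.31 and 12.2 in control, 16.6 and 16.7 in shControl, 12.3 and 16.1 in shMETTL3 and 46 and 28.4 in shMETTL14 libraries (log2 fold change 1.16 ± 0.40 SE, adjusted p = 0.0381). SNHG19 lost this call without shControl 1, shControl 2 or shMETTL14 1 (adjusted p from 0.169 to 0.462), and with DESeq2 (adjusted p = 0.248, or 0.177 on filtered genes) or the enclosed counts removed (adjusted p = 0.243). SNHG3 was higher by 0.47 ± 0.14 (SE, adjusted p = 0.0147). SNHG3 lost this call without shControl 1, shControl 2 or shMETTL14 2 (adjusted p from 0.112 to 0.152), and with the enclosed counts removed (adjusted p = 0.214). SNHG4 was higher by 0.45 ± 0.15 (SE, adjusted p = 0.0388). SNHG4 lost this call without control 1, control 2, shControl 1, shControl 2 or shMETTL14 2 (adjusted p from 0.0589 to 0.399), and with DESeq2 (adjusted p = 0.203, or 0.169 on filtered genes) or no filter (adjusted p = 0.0568). The last of the 7 was SNHG12, named after its values were seen, at 1.35 ± 0.38 (SE, adjusted p = 0.0119). SNHG12 lost this call without shControl 1, shControl 2 or shMETTL14 1 (adjusted p from 0.0574 to 0.128), and with DESeq2 (adjusted p = 0.0983, or 0.0609 on filtered genes). The 1 SNHG row that fell was SNHG26, with 29.2 and 22.6 in control, 93.4 and 56.8 in shControl, 47.2 and 53.2 in shMETTL3 and 7 and 17.9 in shMETTL14 libraries (log2 fold change -2.59 ± 0.36 SE, adjusted p = 6.4e-06). Both of its shMETTL14 libraries lay below all 6 others.

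MIR31HG fell by 1.02 ± 0.15 on the log2 scale (SE, adjusted p = 1.57e-05), while its 2 shMETTL14 libraries stayed above both control libraries. MIR181A1HG was lower at -0.75 ± 0.17 (SE, adjusted p = 0.00233). MIR181A1HG lost this call without shControl 1 or shMETTL14 1 (adjusted p from 0.0584 to 0.0984), and with library size alone (adjusted p = 0.0836). MIR924HG had 19 and 23 raw counts in shControl and 6 and 3 in shMETTL14 libraries. It reached the filter's cutoff in every group but shMETTL14, so it stands among the lower hosts without its test. MIR3142HG was lower at -1.44 ± 0.33 (SE, adjusted p = 0.00198). MIR3142HG lost this call without shControl 1 (adjusted p = 0.115). The 3 higher hosts included MIR155HG at 1.05 ± 0.29 (SE, adjusted p = 0.00881) and MIR4435-2HG at 0.41 ± 0.14 (SE, adjusted p = 0.0383). MIR155HG lost this call without shControl 1, shControl 2 or shMETTL14 1 (adjusted p from 0.063 to 0.0991), and with DESeq2 (adjusted p = 0.0827, or 0.0527 on filtered genes). MIR4435-2HG lost this call without control 1, control 2, shControl 1, shControl 2, shMETTL14 1 or shMETTL14 2 (adjusted p from 0.0619 to 0.325), and with DESeq2 (adjusted p = 0.114, or 0.105 on filtered genes) or no filter (adjusted p = 0.0626). The last, MIR3681HG, was named after its values were seen, with 2 and 8 counts in control, 6 and 1 in shControl, 6 and 12 in shMETTL3 and 14 and 19 in shMETTL14 libraries. It passed the filter on low counts mainly through the shMETTL14 libraries, so it stands in the count without its test.

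The knockdowns were also compared directly. In shMETTL14 against shMETTL3 cells, 6 members were higher and 7 lower, against 16.5% and 18.7% of all genes tested. SNHG rows gave 4 higher and 3 lower (median -0.17) and microRNA hosts 2 higher and 4 lower (median -0.14), beside a median of 0.01 over all genes. Scaling by library size gave 2 higher and 15 lower members and moved the median of all genes to -0.25. Without the enclosed counts the SNHG median turned to 0.25 and the median of all members from -0.14 to 0.04, while that of the microRNA hosts was -0.15. With at least 10 counts in every library the microRNA host median turned to 0.02. It was -0.27 without shMETTL3 replicate 1 and -0.08 without shMETTL3 replicate 2, and without the filter the class medians were -0.02 and -0.08. The 6 higher members became 1 without shMETTL14 replicate 1 and 11 without shMETTL3 replicate 1. MIR181A1HG, MIR31HG, MIR34AHG and MIR181A2HG were lower with shMETTL14, at -1.90 ± 0.17 (SE, adjusted p = 4.37e-09), -1.45 ± 0.15 (SE, adjusted p = 5.44e-08), -1.25 ± 0.17 (SE, adjusted p = 3.19e-06) and -1.13 ± 0.24 (SE, adjusted p = 0.000651). SNHG26 and SNHG14 were lower too, at -2.02 ± 0.38 (SE, adjusted p = 0.000147) and -0.82 ± 0.14 (SE, adjusted p = 3.98e-05). SNHG8 was lower at -0.66 ± 0.21 (SE, adjusted p = 0.0155). SNHG8 lost this call without shMETTL3 1, shMETTL14 1 or shMETTL14 2 (adjusted p from 0.0548 to 0.271), and with DESeq2 (adjusted p = 0.108, or 0.0831 on filtered genes) or the enclosed counts removed (adjusted p = 0.479). SNHG5 was higher at 1.19 ± 0.22 (SE, adjusted p = 9.88e-05). SNHG19 was higher at 1.38 ± 0.40 (SE, adjusted p = 0.00824), and SNHG1 at 0.69 ± 0.20 (SE, adjusted p = 0.00863). SNHG19 lost this call without shMETTL14 1 (adjusted p = 0.227), and with DESeq2 (adjusted p = 0.0942, or 0.0619 on filtered genes). SNHG1 lost this call without shMETTL3 2 or shMETTL14 1 (adjusted p from 0.083 to 0.113), and with DESeq2 (adjusted p = 0.111, or 0.0809 on filtered genes) or library size alone (adjusted p = 0.133). The other 3 higher members, named after their values were seen, were SNHG12 at 0.92 ± 0.35 (SE, adjusted p = 0.0448), MIR22HG at 0.87 ± 0.29 (SE, adjusted p = 0.0223) and MIR762HG at 0.98 ± 0.37 (SE, adjusted p = 0.0398). SNHG12 lost this call without shControl 1, shControl 2, shMETTL3 2, shMETTL14 1 or shMETTL14 2 (adjusted p from 0.0557 to 0.45), and with DESeq2 (adjusted p = 0.241, or 0.189 on filtered genes), library size alone (adjusted p = 0.0997) or only the 2 groups compared (adjusted p = 0.0767). MIR22HG lost this call without shMETTL3 2 or shMETTL14 1 (adjusted p from 0.0907 to 0.221), and with DESeq2 (adjusted p = 0.157, or 0.117 on filtered genes) or library size alone (adjusted p = 0.116). MIR762HG lost this call without shMETTL3 1, shMETTL14 1 or shMETTL14 2 (adjusted p from 0.0851 to 0.217), and with DESeq2 (adjusted p = 0.217, or 0.168 on filtered genes), library size alone (adjusted p = 0.14) or only the 2 groups compared (adjusted p = 0.0635). MIR762HG shares 95.4% of its span with BCL7C on the other strand.

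Where inside a host the reads lay was then examined. The SNHG rows enclose 17 SNORA, 4 SCARNA and 100 SNORD rows. The SNORA rows held 10923 counts, of which SNORA73B in SNHG3 alone held 8497. The SCARNA rows held 990, whereas the 100 SNORD rows held 451, with 53 of them at 0. The microRNA hosts enclose 86 microRNA rows, which held 62 counts in all and of which 61 were at 0. MIR6516, a microRNA row in SNHG20, held 213 counts and overlaps SCARNA16. SCARNA13 held 92.7% of the counts of SNHG10, SCARNA17 78.9% of SNHG22, SCARNA16 77.5% of SNHG20, SNORA17B 63.5% of SNHG7, SNORA74A 55.6% of SNHG4, SNORA24 53.2% of SNHG8 and SNORA73B 52.1% of SNHG3. Run-on labels transcripts in progress, and whether mature small RNA also entered the libraries was not tested.

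**Figure D4:**
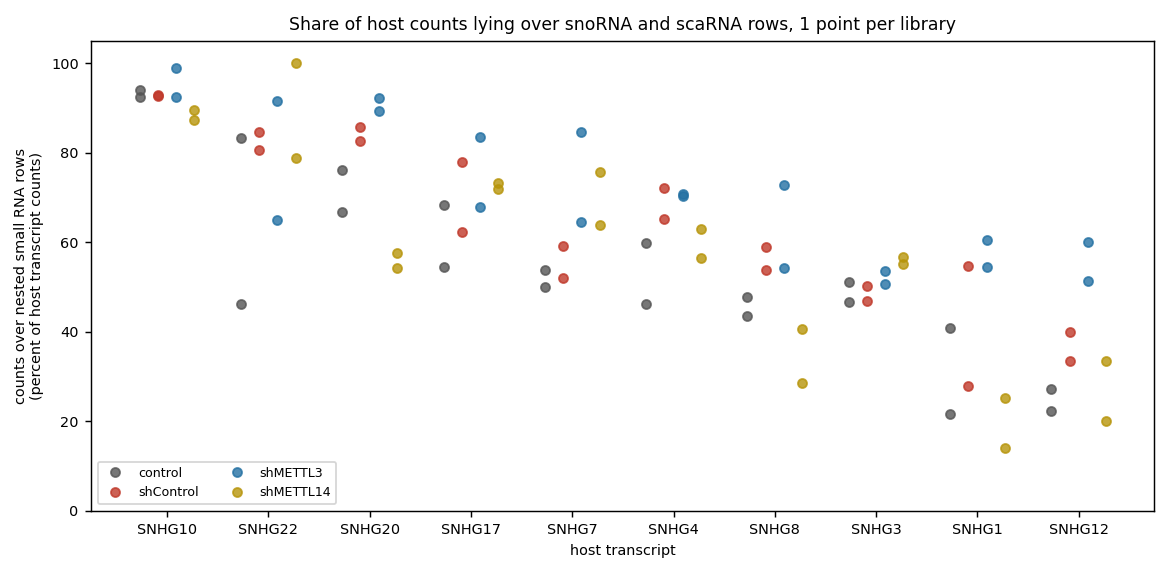
Share of a host's counts that lay over its enclosed snoRNA and scaRNA rows (vertical axis, percent), 1 point per library, for the 10 hosts with at least 200 counts and a share of at least 10%. In SNHG1, SNHG4, SNHG8, SNHG10, SNHG12 and SNHG20 both shMETTL14 libraries lie below both shMETTL3 libraries, and in SNHG3 both lie above them.

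The share of enclosed counts is given by library as a description, with no test. In SNHG8 it was 43.6% and 47.6% in control, 53.7% and 58.9% in shControl, 72.8% and 54.3% in shMETTL3 and 28.6% and 40.5% in shMETTL14 libraries. In SNHG20 it was 66.7% and 76.2%, 82.6% and 85.7%, 89.2% and 92.1%, and 54.3% and 57.5% in the same order. In SNHG1 it was 21.6% and 40.8%, 54.5% and 27.9%, 60.5% and 54.4%, and 14% and 25.2%. In SNHG3 it lay between 46.6% and 56.8% in all 8 libraries, with 53.5% and 50.5% in shMETTL3 and 55.1% and 56.8% in shMETTL14 libraries.

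The enclosed rows were tested in the main fit, and the rest of their hosts in a separate fit with the enclosed counts removed. Of the 12 enclosed SNORA, SCARNA and SNORD rows that were tested, 7 were higher and 0 lower in shControl against control, 5 higher and 0 lower with shMETTL3, 3 higher and 0 lower with shMETTL14, and 0 higher and 6 lower in shMETTL14 against shMETTL3. SNORA71C stands among both the 5 and the 3, with 9 and 4 in control, 4 and 4 in shControl, 20 and 14 in shMETTL3 and 19 and 18 in shMETTL14 libraries. It passed the filter on low counts only through the knockdown groups in which it was high, so it stands in the counts without its test. SNORA74D, with 5 and 6 in control and 18 and 14 in shControl libraries, reached the filter's cutoff in every group but control. In shControl against control it also stands without its test. In the same order, 13.3%, 12.2%, 9.15% and 16.5% of all genes tested were higher and 13.3%, 11.2%, 12% and 18.7% lower. DESeq2 called 4, 2 and 2 higher in the first 3 comparisons and 2 lower in the last. At an unadjusted p below 0.05 edgeR gave 0, 0, 1 and 0 in the directions with no call, and DESeq2 called 0 in each. SNORA24 had raw counts of 17 and 20 in control, 29 and 43 in shControl, 110 and 57 in shMETTL3 and 22 and 32 in shMETTL14 libraries. It was lower with shMETTL14 than with shMETTL3, at -1.58 (adjusted p = 0.000383), whereas SNHG8 without it gave 0.25 ± 0.26 (SE, adjusted p = 0.479). SCARNA16 had 16 and 16 in control, 19 and 24 in shControl, 33 and 70 in shMETTL3 and 19 and 23 in shMETTL14 libraries. It was lower at -1.22 (adjusted p = 0.00672). SCARNA16 lost this call without shMETTL3 2 or shMETTL14 1 (adjusted p from 0.0908 to 0.231), and with DESeq2 without the filter (adjusted p = 0.0665). The rest of SNHG20 had 8 and 5 counts in control, 4 and 4 in shControl, 4 and 6 in shMETTL3 and 16 and 17 in shMETTL14 libraries. It reached the minimum of 10 counts in the shMETTL14 libraries alone, so no test of it is given. SNORD22 had 7 and 14 in control, 25 and 14 in shControl, 39 and 30 in shMETTL3 and 9 and 13 in shMETTL14 libraries, and was lower at -1.58 (adjusted p = 0.00513) while the rest of SNHG1 was higher at 1.62 ± 0.26 (SE, adjusted p = 2.1e-05). SNORD22 lost this call without shMETTL14 1 (adjusted p = 0.0895).

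Against shControl, the rest of SNHG1 was higher with shMETTL14 at 1.33 ± 0.26 (SE, adjusted p = 0.000415). With shMETTL3 it did not pass the test, at -0.30 ± 0.30 (SE, adjusted p = 0.517). In shControl against control cells, SNHG3 and SNHG4 kept their calls without the enclosed counts, at 1.04 ± 0.14 (SE, adjusted p = 1.76e-06) and 1.01 ± 0.26 (SE, adjusted p = 0.00422). The calls of SNHG8 (0.70 ± 0.32 SE, adjusted p = 0.108) and SNHG1 (0.63 ± 0.30 SE, adjusted p = 0.133) were lost, SNHG22 turned to -0.09 ± 0.77 (SE, adjusted p = 0.955), and SNHG10 had too few counts left to be tested. SNHG3 with shMETTL14 (0.25 ± 0.14 SE, adjusted p = 0.214) and SNHG17 and SNHG8 with shMETTL3 (0.45 ± 0.36 SE, adjusted p = 0.399 and 0.48 ± 0.29 SE, adjusted p = 0.244) also lost their calls. Leaving out single libraries was not combined with the removal of enclosed counts.

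A sequence feature that the names did not select was then read at the promoters. Many snoRNA hosts belong to the genes whose transcripts start with a pyrimidine tract, a feature of growth-regulated translation genes. In RefSeq promoters of GRCh38.p14, a run of at least 6 consecutive C or T on the gene's strand overlapped the 5 bases on either side of the annotated start in 13 of 20 SNHG promoters (65%), in 17 of 59 microRNA host promoters (28.8%) and in 23.1% of all 35116 promoters. The windows of SNHG1 at chr11:62855866-62855899, SNHG3 at chr1:28505929-28505962, SNHG4 at chr5:139274087-139274120, SNHG5 at chr6:85678714-85678747, SNHG8 at chr4:118278748-118278781 and SNHG16 at chr17:76557750-76557783 are shown, as 6 called hosts whose window holds a run. The annotated start is base 15 of 34 and the run is in capitals.
SNHG1: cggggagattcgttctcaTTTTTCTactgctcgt
SNHG3: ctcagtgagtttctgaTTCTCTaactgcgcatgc
SNHG4: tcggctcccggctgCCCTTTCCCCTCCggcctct
SNHG5: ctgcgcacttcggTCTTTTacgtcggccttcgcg
SNHG8: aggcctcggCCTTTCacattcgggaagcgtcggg
SNHG16: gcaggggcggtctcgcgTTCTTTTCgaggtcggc
A run in these letters is a description of the window and not evidence of how these genes are regulated.

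Genes that work with the hosts were read from lists. Of all genes tested, 13.3% were higher and 13.3% lower in shControl against control, 12.2% and 11.2% with shMETTL3, and 9.15% and 12% with shMETTL14. The list counts are given against these shares, and no list was tested as a set. In the list comparisons below with a count of 0, edgeR gave 0 to 3 genes in that direction at an unadjusted p below 0.05 and DESeq2 called 0. Of the 5 noncoding snoRNA hosts without an SNHG name, 3 were higher and 0 lower in shControl against control (median 0.69), 1 higher and 0 lower with shMETTL3 (median 0.27), and 2 higher and 1 lower with shMETTL14 (median 0.19). GAS5, a host named for growth arrest, was higher with shMETTL14 at 0.89 ± 0.15 (SE, adjusted p = 9.04e-05). MEG8 of the imprinted DLK1 region was lower with shMETTL14 at -1.11 ± 0.16 (SE, adjusted p = 7.92e-06). DANCR, counted as higher with both knockdowns, had 16 and 15 counts in control and 5 and 7 in shControl libraries. It had 28 and 30 in shMETTL3 and 30 and 18 in shMETTL14 libraries. Both shControl libraries lay below the filter's minimum count, so DANCR stands among the higher hosts without its test. Protein-coding snoRNA hosts gave 7 higher and 0 lower of 29 in shControl cells (median 0.12), 0 higher and 5 lower with shMETTL3 (median -0.10), and 3 higher and 2 lower with shMETTL14 (median 0.17). NCL, the nucleolar protein nucleolin, was lower with both, at -1.12 ± 0.14 (SE, adjusted p = 8.62e-07) and -1.65 ± 0.14 (SE, adjusted p = 2.59e-09).

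The snoRNP proteins, which bind and mature snoRNAs, gave 3 higher and 0 lower of 18 in shControl cells (median 0.11), 0 higher and 4 lower with shMETTL3 (median -0.29) and 2 higher and 1 lower with shMETTL14 (median 0.33). RUVBL2, an assembly ATPase, was lower with shMETTL3 at -1.15 ± 0.29 (SE, adjusted p = 0.00449), and FBL, the box C/D methyltransferase fibrillarin, at -0.87 ± 0.28 (SE, adjusted p = 0.0253). RUVBL2 lost this call with library size alone (adjusted p = 0.155). FBL lost this call without shControl 1, shControl 2 or shMETTL3 1 (adjusted p from 0.0711 to 0.118), and with DESeq2 (adjusted p = 0.156, or 0.129 on filtered genes), library size alone (adjusted p = 0.534) or only the 2 groups compared (adjusted p = 0.0556). Of 16 tested microRNA processing and Argonaute genes, 1 was higher and 4 lower in shControl cells (median -0.25), 1 higher and 0 lower with shMETTL3 (median -0.08), and 0 higher and 3 lower with shMETTL14 (median -0.37). DROSHA in shControl cells (-0.40, edgeR adjusted p = 0.0891) and DGCR8 with shMETTL14 (0.10, edgeR adjusted p = 0.8) did not pass the threshold. DGCR8 was lower in shControl cells at -0.71 ± 0.21 (SE, adjusted p = 0.0108), and DROSHA with shMETTL14 at -0.66 ± 0.19 (SE, adjusted p = 0.0137). DGCR8 lost this call without control 1 or shControl 1 (adjusted p from 0.121 to 0.199), and with DESeq2 (adjusted p = 0.13, or 0.0857 on filtered genes). DROSHA lost this call without shControl 1 or shMETTL14 1 (adjusted p from 0.153 to 0.236), and with DESeq2 (adjusted p = 0.0957, or 0.0726 on filtered genes) or library size alone (adjusted p = 0.324). Nonsense-mediated decay factors, which degrade many spliced SNHG transcripts, gave 2 higher and 0 lower of 15 in shControl cells (median -0.02), 1 higher and 1 lower with shMETTL3 (median -0.23), and 0 in either direction with shMETTL14 (median 0.09). At an unadjusted p below 0.05 the latter were 2 higher and 0 lower by edgeR, and DESeq2 called 0. SMG6, the decay endonuclease, was higher with shMETTL3 at 0.77 ± 0.14 (SE, adjusted p = 0.000159).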

How the data were processed

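IMR90 cells gave 8 fastGRO-seq libraries, 2 in each of 4 groups. The authors aligned reads to hg19 (STAR, with deepTools 3.3 also listed in the submitters' processing notes) and used HOMER to count reads along entire genes. The deposited values are raw counts per gene without normalization, with libraries kept apart. The authors also give row lengths, from which RPKM was computed here. No spike-in entered the scaling, so all changes are relative to the bulk of genes.

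Counts were tested in edgeR 4.0.16 (R 4.3.3). TMM normalization, filterByExpr with a minimum count of 10, and 1 quasi-likelihood fit to all 8 libraries gave each contrast over 12844 genes, with Benjamini-Hochberg adjusted p-values called below 0.05. Libraries of a group differed with a biological coefficient of variation of 10.6% over all groups, and with variances over Poisson sampling of 1.81 in control, 1.6 in shControl, 6.04 in shMETTL3 and 2.93 in shMETTL14, a ratio of 1 being sampling noise alone. Enclosed small RNA rows were found by coordinates. Alternatives included DESeq2 1.42.0 without the filter and, chosen after seeing the data, on the filtered genes, other scalings, filters and thresholds, a replicate block, removal of enclosed counts, and each library left out. Named members are those called in any of the first 3 comparisons with a mean of at least 50 counts (at most 25), and the 10 with the highest RPKM. Members and lists were chosen with earlier results of these data known. P-values measure only the spread between libraries of a group, estimated in 1 fit to all 8 libraries, so groups of unlike spread share it. For senescent and proliferating cells the authors describe 2 biologically independent experiments. Plots used matplotlib 3.10.9. Some items are not reported here.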

Additional observations from a re-analysis of the deposited data

Results flagged for a closer look

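MIR31HG and MIR181A1HG moved in opposite directions under the knockdowns, each past the threshold, and the direct test separated shMETTL14 from shMETTL3. For MIR31HG the log2 fold change between them was -1.45 ± 0.15, lower with shMETTL14, with 0.43 ± 0.15 for shMETTL3 and -1.02 ± 0.15 for shMETTL14 against shControl (SE). For MIR181A1HG it was -1.90 ± 0.17, with 1.15 ± 0.16 and -0.75 ± 0.17. MIR31HG lost the rise with shMETTL3 without control 1, control 2, shControl 1, shControl 2 or shMETTL3 2 (adjusted p from 0.0823 to 0.376), and with DESeq2 on filtered genes (adjusted p = 0.0562), upper quartile scaling (adjusted p = 0.0502), at least 10 counts required in every library (adjusted p = 0.052) or only the 2 groups compared (adjusted p = 0.055). MIR181A1HG lost the fall with shMETTL14 without shControl 1 or shMETTL14 1 (adjusted p from 0.0584 to 0.0984), and with library size alone (adjusted p = 0.0836). Both knockdowns were compared with the same shControl libraries.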

How the results depend on the processing

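Over all members, 61 values were called in the 4 comparisons. Of these, 29 stayed called with each library left out, 31 under each other alternative, and 27 under all. Leaving out a library leaves 1 in its group, which the fit then assumes to vary like the other groups. DESeq2 ended 24 of the 61 without the filter on low counts and 23 with it, an alternative added after seeing the data. Library size alone ended 11, removal of the enclosed counts 9, with SNHG20 left at few counts and SNHG10 not tested, and a fit to only the 2 groups compared 7. Members higher and lower were 12 and 7 in shControl against control, 12 and 2 with shMETTL3, 10 and 5 with shMETTL14, and 6 and 7 between the knockdowns. In the first comparison library size alone gave 7 higher and 15 lower, and DESeq2 with or without the filter gave 4 lower. With shMETTL3, library size alone gave 23 higher and 1 lower, a log2 fold change of at least 1 in size left 3 higher, and 1 was lower with DESeq2 with or without the filter, with only the 2 groups compared and at an adjusted p below 0.01. A minimum of 10 counts in every library, which tests fewer genes, left 0 lower with shMETTL3 and 2 with shMETTL14. With shMETTL14, 18 were higher by library size alone, 3 by DESeq2 (4 on filtered genes), 4 at an adjusted p below 0.01 and 5 at a log2 fold change of at least 1. Between the knockdowns, 2 were higher and 15 lower by library size alone, and 1 was higher by DESeq2 with or without the filter, 3 at an adjusted p below 0.01 and 2 at a log2 fold change of at least 1. Apart from the stricter filter and thresholds, which call fewer by construction, the cause was not tested.

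With 1 library left out, the counts ranged from 9 to 14 higher and 5 to 8 lower in shControl against control, 6 to 12 and 0 to 4 with shMETTL3, 3 to 10 and 3 to 6 with shMETTL14, and 1 to 11 and 6 to 9 between the knockdowns. Removal of the enclosed counts reversed SNHG22 in shControl against control (-0.086) and SNHG8 between the knockdowns (0.25). By library size alone EEF2 (0.021) and CASC3 (0.076) reversed with shMETTL3. Same-numbered libraries shared only a number, with correlations of their deviations from -0.0389 to 0.1006 over 6 pairs of groups. The replicate block gave 13 and 7, 12 and 2, 9 and 5, and 6 and 7. With 2 libraries a group and 1513930 to 2048475 counts outside ribosomal rows, 43 members had too few counts to be tested.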
